A study of Mus musculus with 8 samples.

Results

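The genes of oxidative phosphorylation were followed in RNA sequenced from Tregs and Tconvs, with the subunits encoded in the nucleus set beside those encoded in mitochondrial DNA. Members were chosen by name: rows whose gene name begins with Nduf and one of the letters a, b, c, s or v, with Uqcr, with Cox followed by a digit from 4 to 8, or with Atp5, the rows Sdha, Sdhb, Sdhc and Sdhd, and the protein-coding rows with the prefix mt-. This gave 106 of the 52636 rows of the deposited table, 93 of them nuclear and 13 mitochondrially encoded, and 7 further rows marked as pseudogenes by the ending -ps were left out. The nuclear members comprise 38 rows of complex I, 8 Ndufaf rows that encode assembly factors of complex I, 4 of complex II, 8 of complex III, 18 of complex IV, 15 of complex V, and Atp5s and Atp5sl, which carry the Atp5 prefix but are no structural subunits of the ATP synthase. Ndufa4 and Ndufa4l2, which later work places with complex IV, were counted with complex I by their names throughout.

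Oxidative phosphorylation takes place on the inner mitochondrial membrane. Complex I oxidizes NADH, complex II oxidizes succinate, complex III passes the electrons to cytochrome c, complex IV hands them to oxygen, and complex V uses the resulting proton gradient to make ATP. All subunits of complex II are nuclear, whereas the other complexes combine nuclear subunits, whose mRNA is spliced, exported and translated in the cytosol, with core subunits transcribed as long polycistrons from the mitochondrial genome. Tregs are known to rely on mitochondrial respiration for their suppressive function, and activated Tconvs are known to add aerobic glycolysis to it.

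The cells were CD4+ Foxp3+ (Tregs) and CD4+ Foxp3- (Tconvs), sorted from the spleens of mice of 2 genotypes. Before sorting, other cells were depleted with antibodies. The methods list an antibody against CD25, the product of Il2ra, for the purification of Tconvs but not of Tregs. Subset and this step cannot be told apart. Control mice were CD27+/-, that is, with a single functional copy of the gene for the costimulatory receptor CD27. CD70Tg mice were CD11c-Cd70tg;CD27+/- Foxp3 reporter mice, in which the CD11c promoter, active mainly in dendritic cells, drives CD70, the ligand of CD27, so that T cells are exposed to CD70 made by other cells. All groups thus lack a copy of CD27. The methods give an age of 6 to 8 weeks for the mice used, and the labels name none for the sequenced ones. The sample labels name the controls F1 and WT, and the table names them KO. Each of the 4 groups was sequenced as 2 libraries made from 200000 cells, and nothing states that the libraries of a group came from separate animals, so that p-values measure only the spread between these libraries.

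The deposited values are reads per gene scaled to a total of 20 M reads per library, with fractions raised to the next whole number. The step between low values gave 6.91 to 33.1 M reads on genes in the Tconv libraries and 1.9 to 4.53 M in the Treg libraries, so that sequencing depth and subset cannot be told apart. The value that 3 reads give, used as a floor, was 1.8 to 8.6 in Tconvs and 13.1 to 31.3 in Tregs, and it covers counting error only. Foxp3, the transcription factor that defines Tregs, was at 19769 to 21367 in Tregs and at 1039 to 1497 in Tconvs. The 4 Treg markers (Foxp3, Ikzf2, Il2ra, Ctla4) summed to 54604 to 63193 in Tregs and 2695 to 3399 in Tconvs. The 4 T cell markers (Cd3e, Cd3d, Cd4, Trac) summed to 71659 to 84103 in Tconvs and 55782 to 61000 in Tregs. Rows listed as markers of other cells also had values. The 5 myeloid markers summed to 2657 to 4454, the 3 plasma cell markers to 1537 to 2200, the 2 CD8 markers to 317 to 1590, the 5 B cell markers to 61 to 473, the 3 NK cell markers to 0 to 622 and the 3 platelet markers to 5 to 36, so that the myeloid sum was of the size of the Treg sum in Tconvs. Some of these sums rest largely on single genes. The plasma cell sum was mostly Xbp1, at 1516 to 2131, with Jchain at 6 to 64 and Sdc1 at 0 to 36. In control Tconvs, Cd8b1 was at 703 and 653 and Cd8a at 17 and 28. Within the myeloid sum, Cst3 was at 1332 to 2063. The 5 erythroid markers were at 4014 and 2406 in CD70Tg Tregs and at 566 to 1583 in the other libraries, and the 4 neutrophil markers at 191 and 165 against 5 to 17. Their part in the comparisons of CD70Tg Tregs was not tested. Of the 12798 genes tested, which had at least 60 in at least 2 libraries, 85 were nuclear members and 7 mitochondrially encoded members. The other 14 members were not tested, and none of them exceeded 60.

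The nuclear and the mitochondrially encoded members were distributed in opposite ways between the subsets. The 93 nuclear members summed to 224886 and 232019 in control Tconvs, 201159 and 214541 in CD70Tg Tconvs, 161700 and 150738 in control Tregs, and 154660 and 160906 in CD70Tg Tregs. The 4 Tconv libraries were all above the 4 Treg libraries. The 13 mitochondrially encoded members summed to 49190 and 126587 in control Tconvs, 131450 and 40246 in CD70Tg Tconvs, 144944 and 172906 in control Tregs, and 154871 and 163428 in CD70Tg Tregs. Here the 4 Treg libraries were all above the 4 Tconv libraries, but the Tconv libraries fell into a low and a high pair, and each pair held a control and a CD70Tg library. The ratio of the mitochondrially encoded to the nuclear sum was accordingly 0.219 and 0.546 in control Tconvs, 0.653 and 0.188 in CD70Tg Tconvs, 0.896 and 1.147 in control Tregs, and 1.001 and 1.016 in CD70Tg Tregs. The mitochondrially encoded sum rests on the 7 tested members, because the others were close to 0 in every library. In bulk RNA, fewer cells of a kind and less RNA per cell cannot be told apart.

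**Figure D1:**
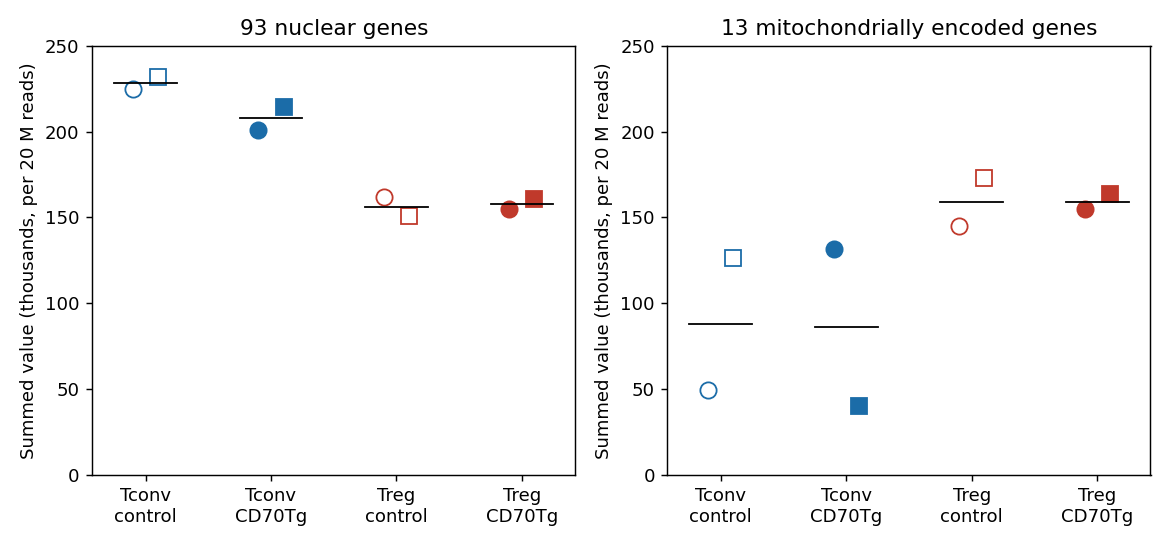
Summed value of the 93 nuclear members (left) and the 13 mitochondrially encoded members (right) in each library, per 20 M reads and divided by 1000. Circles are the first and squares the second library of a group in the order of the table, open symbols are controls, filled symbols are CD70Tg, and lines are group means. The nuclear sum lies between 201159 and 232019 in Tconvs and between 150738 and 161700 in Tregs, and the mitochondrially encoded sum of 49190 and 40246 sets 2 Tconv libraries apart.

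The first control and the second CD70Tg Tconv library, which carry the low mitochondrially encoded sums, were also the deepest of the 8, with 19.44 and 33.1 M reads on genes. The mitochondrial rRNAs moved with the coding genes, at 4018 and 3454 in these libraries, 7704 and 7869 in the other Tconv libraries, and 8987 to 15452 in Tregs. The mitochondrial tRNA rows summed to 687 and 707 in these libraries, 1970 and 1782 in the other Tconvs, and 1984 to 2300 in Tregs. Cytosolic ribosomal protein genes were also lowest among Tconvs there, at 1387527 and 995092 against 1824476 and 1662435. The nuclear members did not follow this split, and lay at 224886 and 214541 against 232019 and 201159. The counts and medians of the nuclear members between subsets, and in the response of Tconvs to CD70, are given with and without these libraries, and for the mitochondrially encoded members the log2 fold changes between subsets are.

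In control mice, nuclear members were lower in Tregs than in Tconvs. Of the 85 tested, 68 were called lower and 2 higher at an adjusted p-value under 0.05 (limma on log2(value + 5), Benjamini-Hochberg adjustment over all tested genes), where 18.4% of all tested genes were called lower and 27.5% higher. The median log2 fold change of the 85 was -0.52, beside 0.069 for all tested genes. Both Treg libraries lay below both Tconv libraries for 80 of the 85, as they did for 33.5% of all tested genes. The differences were small for single genes, and only 3 of the 85 also had an absolute log2 fold change over 1 (19.2% of all tested genes). Without the second control Treg library, 41 were called lower and 1 higher (10.4% of all tested genes were then lower). Without the 2 Tconv libraries of low mitochondrially encoded sum, 66 were called lower and 1 higher, with a median of -0.55 beside 0.145 for all tested genes, of which 14.6% were then called lower.

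Among the 37 tested subunit rows of complex I, 31 were called lower in control Tregs and none higher, with a median log2 fold change of -0.55 and a range from -0.92 to -0.10. Ndufa2, an accessory subunit and the member of the complex with the highest level per kb of exon, was at 2116 and 2275 in control Tconvs and at 1150 and 1161 in control Tregs. Its log2 fold change was -0.92 ± 0.12 (SE, n = 2 per group; adjusted p = 1.7e-05, limma). Both Treg libraries lay far below both Tconv libraries. Ndufs1, the large iron-sulfur core subunit, was at 1810 and 1599 against 1529 and 1428 and did not pass the test (adjusted p = 0.20, limma). Ndufab1, the mitochondrial acyl carrier protein and the lowest subunit row of the complex per kb, was at 673 and 643 against 588 and 640, with an adjusted p of 0.71.

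The 8 assembly factors of complex I were more mixed, with 3 called lower and 1 higher. Ndufaf2 was at 156 and 206 in control Tconvs and at 107 and 62 in control Tregs, with a log2 fold change of -1.09 ± 0.33 (SE, n = 2 per group; adjusted p = 0.014, limma). The call was lost without the second control Treg library (-0.72, adjusted p = 0.17, limma) and without the second control Tconv library (-0.89, adjusted p = 0.12, limma). Ndufaf8, a partner of the assembly factor Ndufaf5, was at 717 and 551 against 292 and 311, a log2 fold change of -1.05 ± 0.20 (SE, n = 2 per group; adjusted p = 0.00046, limma), and Ndufaf5 itself changed by -0.65 (adjusted p = 0.026, limma). In the opposite direction, Ndufaf7, a methyltransferase that acts on a complex I subunit, was at 373 and 300 in Tconvs and at 486 and 469 in Tregs, its log2 fold change being 0.51 (adjusted p = 0.047, limma). The calls of Ndufaf5 and Ndufaf7 were both lost without the second control Tconv library (adjusted p = 0.23 and 0.29, limma), without the first control Treg library (0.076 and 0.17) and without the second (0.13 and 0.14).

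All 4 subunits of complex II were called lower in control Tregs, with log2 fold changes from -0.70 to -0.32. Sdha, the flavoprotein that oxidizes succinate, was at 7532 and 6707 in Tconvs and at 5493 and 4821 in Tregs. Sdhc, a membrane anchor, was at 2220 and 2124 against 1354 and 1323, which gave -0.70 (adjusted p = 0.00026, limma). The other anchor, Sdhd, was at 1951 and 2057 against 1611 and 1515 and changed by -0.36 (adjusted p = 0.034, limma). Its call was lost without any one of the 4 control libraries, with adjusted p between 0.064 and 0.19, as was that of Sdhb, the iron-sulfur subunit, at -0.32 (adjusted p = 0.044, limma, 0.088 to 0.24 without a control library and 0.056 without either CD70Tg Treg library), and Sdha lost its call without the second control Treg library (adjusted p = 0.073, limma). The complex without any mitochondrially encoded subunit therefore had the same direction as the others.

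All 8 members of complex III were called lower as well, with a median log2 fold change of -0.62. Uqcrh, the hinge protein and the highest of the complex per kb, was at 5478 and 7688 in control Tconvs and 3892 and 3494 in control Tregs, a log2 fold change of -0.82 ± 0.15 (SE, n = 2 per group; adjusted p = 0.00028, limma). Uqcrfs1, the Rieske iron-sulfur protein, was at 2641 and 2583 against 1534 and 1450, a log2 fold change of -0.81. Uqcrq, a small subunit and the lowest of the complex per kb at 802, was at 1877 and 1924 against 1267 and 1108, or -0.68 on the log2 scale (adjusted p = 0.0012, limma). The core proteins Uqcrc1 and Uqcrc2 changed by -0.46 and -0.55, and Uqcrc1 lost its call without the second control Treg library (adjusted p = 0.062, limma).

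In complex IV, 9 of the 11 tested members were called lower, with a median log2 fold change of -0.51. Cox6a1, the non-muscle form of subunit 6a, had the lowest adjusted p-value of all nuclear members. It was at 3921 and 4152 in control Tconvs, 3694 and 3696 in CD70Tg Tconvs, 2150 and 2067 in control Tregs, and 2393 and 2338 in CD70Tg Tregs, and its log2 fold change in controls was -0.94 ± 0.11 (SE, n = 2 per group; adjusted p = 3.9e-06, limma). Cox7a2l, which joins complex III and complex IV in supercomplexes, was the highest of the complex per kb, at 10289 and 10955 against 6357 and 5508, and changed by -0.84 (adjusted p = 3.2e-05, limma). Cox6c was at 2043 and 2262 against 1980 and 2028 and Cox5b at 2250 and 2162 against 1990 and 1980, and neither passed the test (adjusted p = 0.51 and 0.31, limma). All 11 nevertheless had both control Treg libraries below both control Tconv libraries.

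T cells used one set of tissue isoforms. Per kb of merged exons, averaged over the 8 libraries, Cox4i1 was at 4000 and its hypoxia-linked counterpart Cox4i2 at 9.7. Cox6a1 was at 4347 and the muscle form Cox6a2 at 19.3, Cox7a2 at 1573 and the muscle form Cox7a1 at 22.2, and Cox8a at 4982 and the muscle form Cox8b at 5.6. Cox6b1 was at 3995 and the testis form Cox6b2 at 8.0, and Cox7b was at 1584, whereas Cox7b2 and Cox8c were at 0 in all 8 libraries. Ndufa4, now counted with complex IV, was at 1507 per kb and its relative Ndufa4l2 at 2.6. The lower isoforms had no value above 27 in any library, and their differences were not tested.

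In complex V, 13 of 15 members were called lower in control Tregs, with a median log2 fold change of -0.48. Atp5a1 and Atp5b encode the alpha and beta subunits of the catalytic head. Atp5a1 was at 18273 and 18138 in control Tconvs and 13941 and 12698 in control Tregs, a log2 fold change of -0.45 ± 0.11 (SE, n = 2 per group; adjusted p = 0.0043, limma), and Atp5b changed by -0.51. Atp5h, subunit d of the stalk, was at 4877 and 5979 in control Tconvs and 3140 and 2873 in control Tregs, which gave -0.85 (adjusted p = 3e-05, limma). The c subunit, which forms the rotating ring, is encoded by 3 genes that give the same mature protein. Of these, Atp5g3 was the highest per kb at 1553, followed by Atp5g2 at 1195 and Atp5g1 at 325, and their log2 fold changes were -0.42, -0.48 and -0.81, all of them called. Without the second control Treg library the calls of Atp5a1, Atp5g2 and Atp5g3 were lost (adjusted p = 0.075, 0.11 and 0.064, limma). Atp5l, subunit g, was at 1185 and 1582 against 1087 and 1047 and did not pass (adjusted p = 0.065, limma), but was called without the first control Tconv library or either CD70Tg Tconv library (adjusted p = 0.014, 0.044 and 0.042, limma).

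The member with the largest increase in control Tregs was Atp5s, a mitochondrial protein called coupling factor B that is no structural subunit. It was at 23 and 34 in control Tconvs, 38 and 37 in CD70Tg Tconvs, 112 and 75 in control Tregs, and 42 and 60 in CD70Tg Tregs. The log2 fold change in controls was 1.55 ± 0.40 (SE, n = 2 per group; adjusted p = 0.0053, limma), and it was 1.31 without the 2 Tconv libraries of low mitochondrially encoded sum (adjusted p = 0.066, limma) and 1.28 without the first control Treg library (adjusted p = 0.060, limma). Without the first control Tconv library alone the adjusted p was 0.061. The values correspond to few reads in Tregs, where 3 reads are worth 13.1 to 31.3. Atp5s reached the filter of 60 only in Treg libraries, the subset where it was high. Its rank and its test therefore do not stand apart from that filter. Atp5sl, an assembly factor of complex I despite its name, was at 810 and 741 against 675 and 762, with an adjusted p of 0.58.

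**Figure D2:**
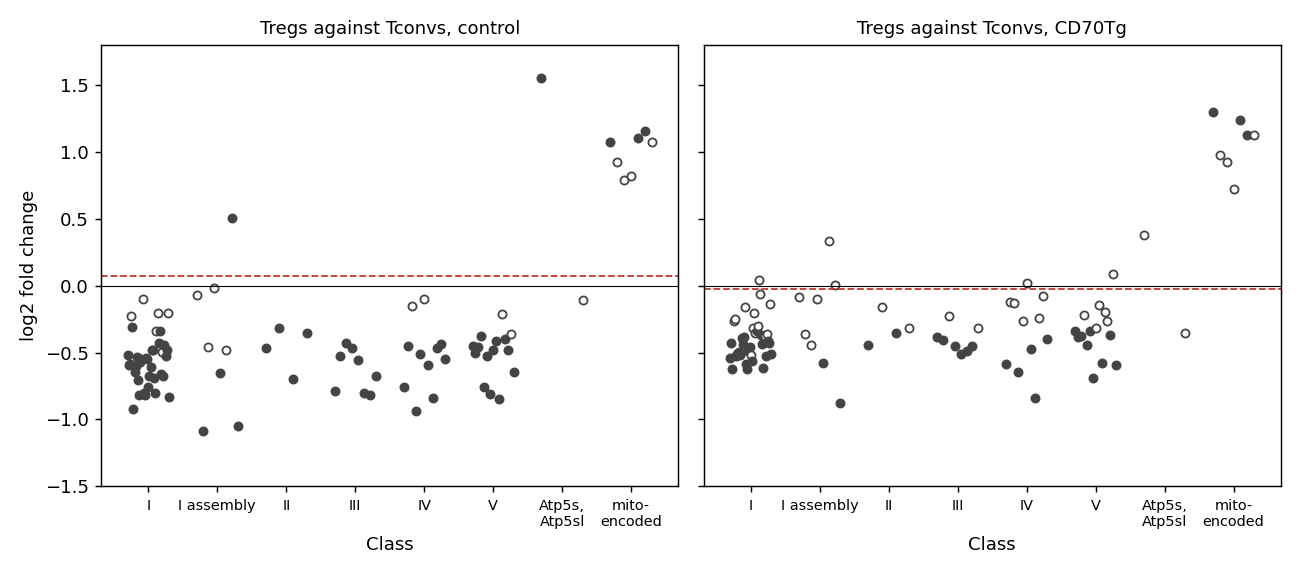
Log2 fold change of Tregs against Tconvs for each tested member by class, in control (left) and CD70Tg (right) mice. Filled points passed an adjusted p-value of 0.05, open points did not, and the dashed line is the median of all 12798 tested genes. In controls, 68 of 85 nuclear members are called lower and Ndufaf7 and Atp5s higher, and the 7 mitochondrially encoded members lie between 0.79 and 1.16.

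The same comparison in CD70Tg mice called 48 of 85 nuclear members lower in Tregs and none higher, where 20.1% of all tested genes were called lower and 22.6% higher. The median log2 fold change was -0.38, beside -0.022 for all tested genes, and both Treg libraries lay below both Tconv libraries for 65 of the 85 (35% of all tested genes). The log2 fold changes of the 85 lay between -0.88 and 0.38, where 17.2% of all tested genes were called with an absolute log2 fold change over 1. By complex, 24 of 37 subunit rows of complex I were called lower, 2 of 4 in complex II, 6 of 8 in complex III, 5 of 11 in complex IV and 9 of 15 in complex V. Cox7a2l had the lowest adjusted p, at 10108 and 8642 in Tconvs and 5350 and 5084 in Tregs (log2 fold change -0.84, adjusted p = 4.3e-05, limma). The count depended on single libraries, and was 28 without the second CD70Tg Tconv library, 21 without the first CD70Tg Treg library, and 31 without the 2 Tconv libraries of low mitochondrially encoded sum, all of them lower. The share of all tested genes called lower fell as well, to 12.9%, 13.1% and 14% in these fits. Without the 2 Tconv libraries the nuclear median was -0.287, beside 0.075 for all tested genes.

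Nuclear members have short transcripts, and the difference between subsets varied with transcript length over all genes. With genes in 4 classes of equal size by the length of their merged exons, the median log2 fold change in controls of the genes that are no members was -0.11 in the shortest class, of up to 2313 bases, and 0.35 in the longest. In the shortest class, the 59 nuclear members had a median of -0.55, beside -0.11 for the 3134 other genes. In the next class, the 15 members had a median of -0.48 beside -0.08. Malat1, a nuclear noncoding RNA, was at 397 to 1438 in Tconvs and 7415 to 12505 in Tregs, and Gm42418, a row that overlaps an rRNA locus, at 22368 to 44497 against 46859 to 106670. Genes of proliferating cells also differed between the subsets, with the 4 cycling markers together at 945 to 3597 in Tconvs and 3078 to 5444 in Tregs. The sum of the T cell markers given above was lower in all Treg than in all Tconv libraries, like that of the nuclear members. Singly, Cd3d and Cd4 were separated in this way, whereas Cd3e and Trac overlapped. These were at 12624 and 19505 in the second CD70Tg Tconv library and reached 12883 and 21591 in CD70Tg Tregs. The part of length, of Malat1 and Gm42418, of cycling cells and of T cell markers in the difference was not tested.

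Promoter sequence is shown for 3 nuclear members, chosen after their values were seen, because factors known to drive respiratory genes (NRF1, the ETS factor GABP and YY1) act at promoters of this kind. They are the 300 bases from 250 before to 50 after the RefSeq start in GRCm38.p6, on the strand of the gene. Capitals mark matches to the NRF1 motif (GCGCA and GCGC with any 1 base between them), ACTTCCGG (ETS) or AANATGGC (YY1), searched on both strands, with each motif counted also where matches overlap. Cox6a1 lies at chr5:115348909-115349208 (minus strand) and has 2 NRF1 matches, Atp5h at chr11:115419870-115420169 (minus strand) has an NRF1 and an ETS match, and Ndufa7 at chr17:33824395-33824694 (plus strand, the later of its 2 RefSeq starts, the other having none of the motifs) has a YY1 match.
Cox6a1: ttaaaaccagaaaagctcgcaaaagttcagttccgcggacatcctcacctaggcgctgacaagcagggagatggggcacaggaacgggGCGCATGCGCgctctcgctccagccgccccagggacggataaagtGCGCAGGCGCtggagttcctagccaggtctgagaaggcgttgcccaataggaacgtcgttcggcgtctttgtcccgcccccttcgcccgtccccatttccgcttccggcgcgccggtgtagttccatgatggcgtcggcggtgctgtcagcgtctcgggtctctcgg
Atp5h: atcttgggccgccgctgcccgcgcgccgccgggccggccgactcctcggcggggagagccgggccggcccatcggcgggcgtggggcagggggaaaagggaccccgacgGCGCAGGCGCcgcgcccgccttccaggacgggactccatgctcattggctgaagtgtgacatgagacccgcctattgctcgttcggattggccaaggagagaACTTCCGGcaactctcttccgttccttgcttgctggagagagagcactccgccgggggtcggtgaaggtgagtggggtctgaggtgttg
Ndufa7: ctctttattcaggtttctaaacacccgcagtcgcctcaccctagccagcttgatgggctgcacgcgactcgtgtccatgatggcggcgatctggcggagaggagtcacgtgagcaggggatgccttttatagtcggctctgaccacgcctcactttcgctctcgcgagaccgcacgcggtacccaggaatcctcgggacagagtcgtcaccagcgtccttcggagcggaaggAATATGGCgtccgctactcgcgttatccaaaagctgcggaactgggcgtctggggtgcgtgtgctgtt
Of the 93 nuclear members, 74 had a promoter entry, and 40 of these (54.1%) held at least 1 of the 3 motifs, beside 28.9% of 8976 tested genes and 15.0% of all 27025 promoters in the table. NRF1 matches were found in 25.7% of the 74, YY1 matches in 24.3% and ETS matches in 6.8%, where tested genes had 12.1%, 10.7% and 9.9%. Among the 58 members with a promoter entry that were called lower in control Tregs, 62.1% held at least 1 motif. These are matches of letters in a fixed window, and the libraries do not measure binding.

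The mitochondrially encoded members that were tested are mt-Nd1, mt-Nd2, mt-Nd4, mt-Nd5 and mt-Nd6 of complex I, mt-Cytb of complex III and mt-Co1 of complex IV. Per kb, as the mean of the 8 libraries, they ranged from 5799 for mt-Nd4 to 33807 for mt-Co1, where the highest nuclear member, Cox7a2l, was at 5268. In control Tconvs alone, mt-Nd2, mt-Nd4, mt-Nd5 and mt-Nd6 were at 4064 to 6889 per kb, below Cox7a2l at 7187. All 7 had a positive log2 fold change in control Tregs, and 3 were called higher (27.5% of all tested genes), with a median of 1.07 beside 0.069 for all tested genes. Both Treg libraries lay above both Tconv libraries for 5 of the 7 in controls and 5 of the 7 in CD70Tg mice, as they did for 42.7% and 34.2% of all tested genes. For mt-Co1, the catalytic subunit of cytochrome c oxidase, the values were 20824 and 48566 in control Tconvs, 52573 and 16552 in CD70Tg Tconvs, 61348 and 73071 in control Tregs, and 72533 and 72390 in CD70Tg Tregs. All Treg libraries lay above all Tconv libraries, and the log2 fold change was 1.07 ± 0.39 (SE, n = 2 per group; adjusted p = 0.033, limma) in controls and 1.30 ± 0.39 (SE, n = 2 per group; adjusted p = 0.013, limma) in CD70Tg mice. For mt-Nd5, a proton-pumping subunit, the values were 4533 and 14284, 12830 and 4488, 16134 and 19948, and 15746 and 17334 in the same order, with log2 fold changes of 1.16 and 1.12 (adjusted p = 0.031 and 0.037, limma). For mt-Nd4, another subunit of the membrane arm, they were 3148 and 8052, 7742 and 2489, 9909 and 11870, and 9665 and 11054, with log2 fold changes of 1.11 and 1.23 (adjusted p = 0.029 and 0.018, limma). These 3 genes had Treg libraries above Tconv libraries in both genotypes.

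The other 4 did not pass the test in either genotype. For mt-Cytb, the cytochrome b of complex III, control Tconvs were at 10186 and 25150 and control Tregs at 27610 and 33469, and the difference was 0.93 on the log2 scale (adjusted p = 0.079, limma). For mt-Nd6, encoded on the strand opposite to the other members, they were at 1414 and 5284 against 5498 and 6029, a difference of 1.07 on the log2 scale (adjusted p = 0.075, limma). The strand setting of the counting is not given in the sources used here, so that its reads cannot be told apart from those of the opposite strand. For mt-Nd1 and mt-Nd2, the high pair of Tconv libraries reached the level of Tregs. Their values there were 14412 and 14300 for mt-Nd1, where Tregs were at 14189 to 16743, and 10785 and 10796 for mt-Nd2, where Tregs were at 8746 to 11651.

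Most of the size of these differences came with the 2 Tconv libraries of low mitochondrially encoded sum. Without them, mt-Co1, mt-Nd4 and mt-Nd5 had log2 fold changes of 0.46, 0.43 and 0.33 in controls and 0.46, 0.42 and 0.37 in CD70Tg mice. These are given with no test, because the libraries were left out for their mitochondrially encoded sum and a single Tconv library per genotype remained. The median over the 7 was 0.27 in controls and 0.22 in CD70Tg mice, and mt-Nd2 in CD70Tg mice was at -0.215. The number called in controls was 0 without the first control Tconv library or without the second control Treg library, and 7 without any one of the second control Tconv, the first CD70Tg Tconv or the second CD70Tg Tconv library. In CD70Tg mice it was 0 without the second CD70Tg Tconv library or without either CD70Tg Treg library, 6 without either control Tconv library, and 7 without the first CD70Tg Tconv library. The share of all tested genes called higher lay between 18.6% and 29.2% in controls and between 15.9% and 22.5% in CD70Tg mice when single libraries were left out. With trimmed-mean or median-of-ratios factors, 0 of the 7 passed in either genotype in limma, where 24% to 26.1% of all tested genes were called higher, and the log2 fold changes of all 7 kept their sign.

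**Figure D3:**
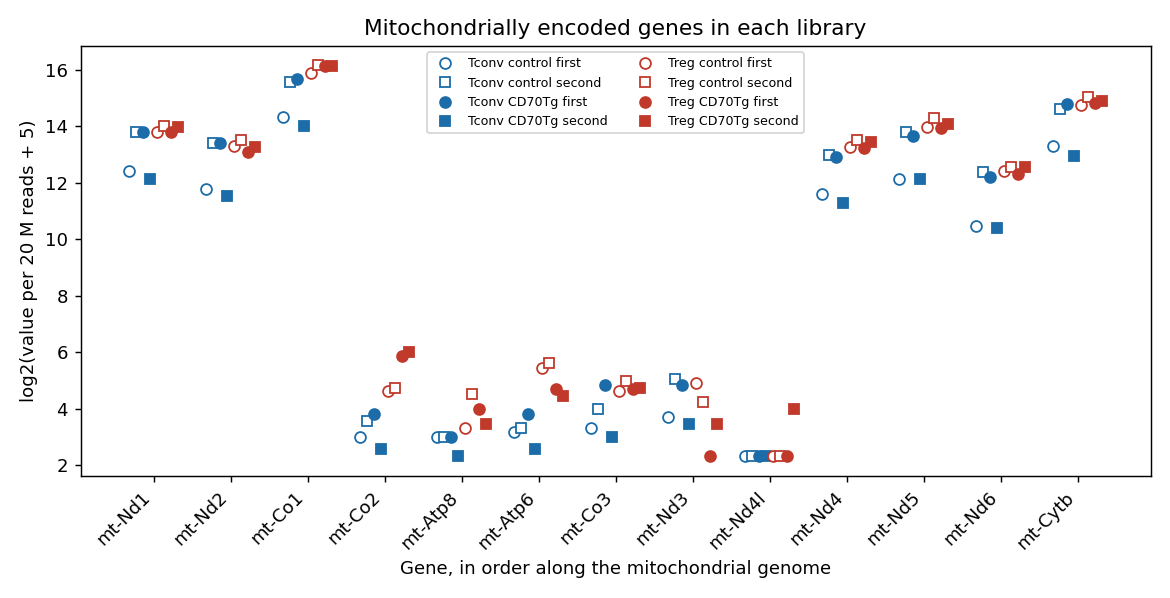
Value of each mitochondrially encoded member in each library as log2(value per 20 M reads + 5), in the order of the genes along the mitochondrial genome. Blue points are Tconvs, red points are Tregs, open symbols are controls and filled symbols CD70Tg. The 7 tested genes have the 2 low Tconv libraries below all others, and 6 genes from mt-Co2 to mt-Nd4l have no value above 60.

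The remaining 6 mitochondrially encoded members were close to 0 in every library. The genes mt-Co2 and mt-Co3, which encode core subunits of complex IV, ranged from 1 to 60 and from 3 to 27, and mt-Atp6 and mt-Atp8, which encode membrane subunits of complex V, from 1 to 44 and from 0 to 18. The genes mt-Nd3 and mt-Nd4l ranged from 0 to 28 and from 0 to 11. These 6 genes lie next to each other between mt-Co1 and mt-Nd4, at positions 7013 to 10173 of the mitochondrial genome (GRCm38). They are transcribed in the same long transcript as their neighbours, which were at 2489 or more in all libraries.

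A nearly identical nuclear copy exists for this stretch. When the mitochondrial genes were aligned to the annotated transcripts of the nuclear genome, bases within a match of at least 99% identity covered 99.6% of mt-Co2 (best match Gm28661), 99.6% of mt-Atp6 (Gm10925), 99.9% of mt-Co3 (Gm28437) and 99.1% of mt-Nd3 (Gm28438), and mt-Nd4l was identical to Gm10222 over 294 bases. For mt-Atp8 the share was 21.1%, and its best match, Gm28925, was 81.4% identical over 167 bases. Among the genes with high values, it was 0.0% for mt-Nd1, mt-Nd2, mt-Nd5, mt-Nd6 and mt-Cytb, 31.3% for mt-Co1 and 63.6% for mt-Nd4. The copies stand in a row at positions 24611535 to 24616197 of chromosome 1, minus strand, in GRCm38. How the counting treated reads that match 2 places is not given in the sources used here, and the part of the copies in the low values was not tested.

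The first 120 bases of mt-Nd3 (near 0 in the table) and 120 bases of mt-Nd5 (at 4488 or more in every library) are shown with their best nuclear match to make the difference visible. Capitals mark the positions at which a pair differs, which are 1 of 120 for mt-Nd3 and 12 of 120 for mt-Nd5. The stretches lie at MT:9459-9578 (plus strand) and chr1:24613000-24613119 (minus strand, within Gm28438), and at MT:12489-12608 (plus strand) and chr4:80002331-80002450 (plus strand, within Gm11407), all in GRCm38.
mt-Nd3: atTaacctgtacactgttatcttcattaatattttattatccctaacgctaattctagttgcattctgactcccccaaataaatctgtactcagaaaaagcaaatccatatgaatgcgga
Gm28438: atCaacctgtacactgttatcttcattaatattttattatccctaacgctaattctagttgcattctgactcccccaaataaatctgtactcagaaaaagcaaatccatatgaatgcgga
mt-Nd5: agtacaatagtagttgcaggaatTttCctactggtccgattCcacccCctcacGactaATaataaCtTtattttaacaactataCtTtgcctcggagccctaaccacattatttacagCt
Gm11407: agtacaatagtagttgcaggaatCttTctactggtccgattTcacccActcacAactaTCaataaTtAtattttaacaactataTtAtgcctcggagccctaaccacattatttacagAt
Over their whole alignments, mt-Nd3 and Gm28438 were 99.7% identical over 345 bases, and mt-Nd5 and Gm11407 92.3% over 1058 bases. Of the 7 rows of copies on chromosome 1, 6 had all Treg libraries above all Tconv libraries, and the exception, Gm28438, was at 0 to 6 in Tconvs and 0 to 36 in Tregs, near or below the floor. Gm10222, at 1 to 7 against 15 to 74, was also near it. Within a single genotype, both Treg libraries lay above both Tconv libraries for 42.7% of all tested genes in controls and 34.2% in CD70Tg mice. The copy of mt-Atp6, Gm10925, was at 18 and 47 in control Tconvs, 47 and 7 in CD70Tg Tconvs, 238 and 416 in control Tregs, and 377 and 403 in CD70Tg Tregs. The copy of mt-Co2, Gm28661, was at 9 and 30, 24 and 4, 117 and 307, and 272 and 251 in the same order. Their values stayed far below those of mt-Co1.

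Chronic CD70 exposure changed few members. In Tregs, 0 of the 85 nuclear and 0 of the 7 mitochondrially encoded members passed the test in limma (7.4% of all tested genes passed), 3 nuclear members and 0 mitochondrially encoded members had an unadjusted p under 0.05 (21.6% of all tested genes), and limma-voom on the recovered numbers of reads also called 0. The median log2 fold change of the nuclear members was 0.01, beside -0.053 for all tested genes, and 45 of the 85 were positive. The lowest adjusted p of a nuclear member was 0.18, for Cox5a, at 1582 and 1388 in control and 1777 and 1909 in CD70Tg Tregs. Mitochondrially encoded members had log2 fold changes from -0.23 to 0.11.

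In Tconvs, 1 nuclear member was called, and it was lower, where 1.98% of all tested genes were called lower and 6.82% higher. It was Ndufa7, an accessory subunit of complex I at position 33824572 of chromosome 17 onwards (GRCm38), at 2416 and 2612 in control and 1729 and 1919 in CD70Tg Tconvs, with a log2 fold change of -0.46 ± 0.12 (SE, n = 2 per group; adjusted p = 0.021, limma). In Tregs it was at 1388 and 1454 in control and 1390 and 1382 in CD70Tg cells. The other nuclear members had the same sign in most cases, with 77 of the 85 negative, where 6258 of all 12798 tested genes were negative. Their median was -0.13 beside 0.007 for all tested genes. CD70Tg libraries lay below both controls for 41 of the 85 (21.5% of all tested genes). The nuclear median was -0.048 without the first CD70Tg Tconv library, where that of all tested genes was 0.088. It was -0.219 without the 2 Tconv libraries of low mitochondrially encoded sum, where that of all tested genes was -0.01. The distance to all genes did not shrink in these fits. It did shrink without the second control Tconv library, where the medians were -0.105 and -0.044. All 37 subunit rows of complex I, all 8 members of complex III and all 15 of complex V had negative log2 fold changes. In complex II, 2 of 4 were positive, and in complex IV 2 of 11. Atp5e, the epsilon subunit of complex V, came closest to the threshold after Ndufa7, at 3647 and 4644 against 3127 and 3061 (log2 fold change -0.41, adjusted p = 0.055, limma). The number called was 3 without the first control Tconv library, where Atp5e was among them (-0.585, adjusted p = 0.012, limma; -0.237 and 0.50 without the second control Tconv library), 0 without the second control or the first CD70Tg Tconv library (Ndufa7 at an adjusted p of 0.16 and 0.075), and 3 without the 2 Tconv libraries of low mitochondrially encoded sum. In these 4 fits, 0.927%, 1.18%, 2.82% and 0.966% of all tested genes were called lower. The sum of cycling markers within Tconvs went from 945 and 975 in controls to 1627 and 3597 in CD70Tg cells, the CD8 markers from 720 and 681 to 1563 and 1590, whereas the NK cell markers went from 516 and 622 to 165 and 223, and their part in the signs was not tested. None of the 7 mitochondrially encoded members passed the test in limma or limma-voom, and 0 had an unadjusted p under 0.05 (19.1% of all tested genes), but the 2 libraries of each Tconv group were so far apart that their median log2 fold change moved from -1.015 without the first CD70Tg Tconv library to 0.73 without the second.

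**Figure D4:**
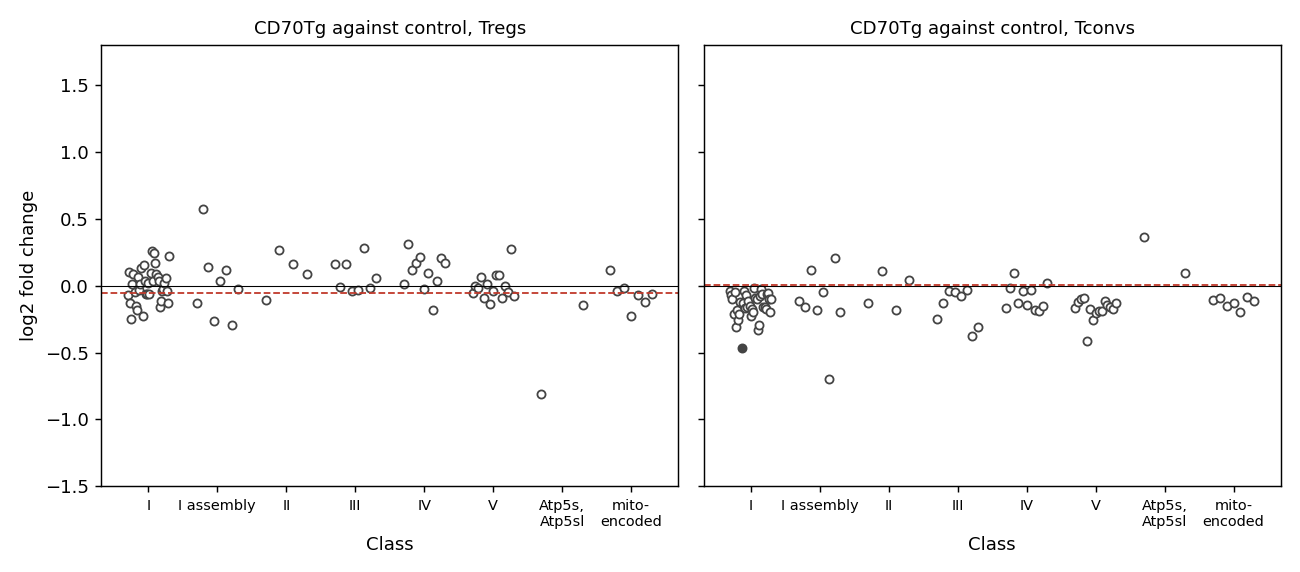
Log2 fold change of CD70Tg against control for each tested member by class, in Tregs (left) and Tconvs (right). Filled points passed an adjusted p-value of 0.05, open points did not, and the dashed line is the median of all 12798 tested genes. Ndufa7 in Tconvs is the only filled point, and 77 of the 85 nuclear members lie below 0 in Tconvs, beside 40 of 85 in Tregs.

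The responses of the subsets were compared directly. For 0 of the 92 tested members did the response to CD70 differ between Tregs and Tconvs in limma (0.188% of all tested genes had a higher and 0.828% a lower response in Tregs), and limma-voom also called 0. At an unadjusted p under 0.05, 2 nuclear members and 0 mitochondrially encoded members differed (10.7% of all tested genes). The difference was positive, that is, higher in Tregs, for 75 of the 85 nuclear members and for 4977 of all 12798 tested genes. The nuclear median was 0.14, beside -0.084 for all tested genes. This median was 0.053 without the first CD70Tg Tconv library, 0.231 without the second and 0.232 without the 2 Tconv libraries of low mitochondrially encoded sum, where that of all tested genes was -0.165, -0.006 and -0.056. The distance to all genes was smaller without the second control Tconv library, with medians of 0.118 and -0.025. It was also smaller without the second CD70Tg Treg library, with 0.098 and -0.077. The nuclear median was 0.22 and 0.23 with median-of-ratios and trimmed-mean factors, where that of all tested genes was -0.005 and 0.007. For Ndufa7 the difference was 0.43 ± 0.17 (SE, n = 2 per group; adjusted p = 0.35, limma). The call of Ndufa7 in Tconvs alone therefore does not show that the subsets responded differently.

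Across the 8 libraries, the nuclear members varied together. After each gene was centred on its mean of log2(value + 5), the mean of the nuclear members was 0.26 and 0.30 in control Tconvs, 0.07 and 0.24 in CD70Tg Tconvs, -0.19 and -0.26 in control Tregs, and -0.24 and -0.18 in CD70Tg Tregs. Tregs of both genotypes thus lay close together, and the CD70Tg Tconvs lay between them and the control Tconvs. The Pearson correlation of a member with this mean, over 8 libraries that fall into 2 subsets, had a median of 0.934 and ranged from -0.767 to 0.992. For the mitochondrially encoded members with their own mean it lay between 0.981 and 0.997. The genes outside the members whose pattern was most like that of the nuclear mean were Tomm6, Gm21981, Mrps5, Supt4a and Tmem261, with correlations of 0.995 to 0.998 over the 8 libraries, and those most like the mitochondrially encoded mean were the tRNA and rRNA genes mt-Tw, mt-Tn, mt-Te, mt-Rnr2 and mt-Tl1, with 0.95 to 0.976. The correlations of the mitochondrially encoded members rest in part on the 2 low Tconv libraries, which stood at -1.19 and -1.43 on this scale, and were not computed without them. All are descriptions of 8 libraries that share subset and depth.

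Genes that make or serve the respiratory chain without belonging to it were examined as lists. Of 78 mitochondrial ribosomal protein genes, whose products translate the mitochondrially encoded mRNAs, 48 were called lower and 1 higher in control Tregs, with a median log2 fold change of -0.50, and 41 lower and 0 higher in CD70Tg mice, with a median of -0.44. Mrps28 had the largest decrease, at 540 and 452 in control Tconvs and 209 and 149 in control Tregs (log2 fold change -1.46, adjusted p = 0.0004, limma). Mrpl12, which also binds the mitochondrial RNA polymerase, was at 1340 and 1738 in CD70Tg Tconvs and 721 and 783 in CD70Tg Tregs (log2 fold change -1.017, adjusted p = 4e-05, limma). The mitochondrial ribosome thus lay on the side of the nuclear subunits.

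Of the 24 genes of the machinery that transcribes and replicates mitochondrial DNA, 3 were called higher and 1 lower in control Tregs, with a median log2 fold change of 0.078, and 2 higher and 4 lower in CD70Tg mice, with a median of -0.046. The 4 called lower in CD70Tg mice are 16.7% of the list, near the 20.1% of all tested genes. The other counts lay below the shares of all tested genes, which were 27.5% higher and 18.4% lower in controls and 22.6% higher in CD70Tg mice. Polg, the catalytic subunit of the mitochondrial DNA polymerase, was at 2110 and 2083 in control Tconvs and 2548 and 2908 in control Tregs (log2 fold change 0.38, adjusted p = 0.016, limma), and Primpol, a primase and polymerase, changed by 0.87 (adjusted p = 0.0019, limma). Both lost their call without the second control Treg library (adjusted p = 0.19 and 0.059, limma), and Polg also without the second control Tconv library (0.062). Tfam, which packages mitochondrial DNA and starts its transcription, was at 1895 and 1538, 1597 and 1730, 1446 and 1380, and 972 and 1169 in control and CD70Tg Tconvs and control and CD70Tg Tregs, and was called lower in Tregs among CD70Tg mice only (log2 fold change -0.64, adjusted p = 0.0018, limma). Whether its difference between the subsets depended on genotype is the test of the 2 responses, which called 0 genes of this list. Lrpprc, which stabilizes mitochondrial mRNAs, was the one gene of the list to change with CD70 in Tregs, from 1408 and 1318 to 1004 and 957 (log2 fold change -0.47, adjusted p = 0.030, limma), and the call was lost without any one of the 4 Treg libraries (adjusted p = 0.11 to 0.28, limma).

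Enzymes and carriers that feed the chain were called in one direction. Of 19 genes of pyruvate oxidation and the tricarboxylic acid cycle, 8 were called lower and 0 higher in control Tregs, and 6 lower and 0 higher in CD70Tg mice. Idh2, the NADP-dependent isocitrate dehydrogenase, was at 2089 and 1741 in control Tconvs and 709 and 710 in control Tregs (log2 fold change -1.42, adjusted p = 1.1e-06, limma). Among the 14 tested electron carriers and carriers of ATP and phosphate, 7 were called lower in controls and 8 in CD70Tg mice, and 0 higher. Gpd2, which passes electrons from cytosolic glycerol phosphate to the chain, was at 748 and 697 in control Tconvs, 620 and 611 in CD70Tg Tconvs, 306 and 272 in control Tregs, and 178 and 174 in CD70Tg Tregs. It was lower in Tregs than in Tconvs (log2 fold change -1.31 in controls, adjusted p = 3e-05, limma) and lower in CD70Tg than in control Tregs (log2 fold change -0.70, adjusted p = 0.030, limma), a call lost without any one of the 4 Treg libraries (adjusted p = 0.092 to 0.27, limma).

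Of 41 assembly factors that the name rule does not reach, 12 were called lower and 2 higher in control Tregs, and 17 lower and 2 higher in CD70Tg mice. Uqcc3 and Uqcc2, which assemble complex III, changed by -1.22 and -1.19 in controls, and Cox10, which makes the heme of complex IV, by -1.18, with adjusted p of 4.9e-06, 2.5e-05 and 6.7e-05 (limma). Among 16 tested regulators of mitochondrial biogenesis, 4 were called higher and 1 lower in control Tregs, and 4 higher and 4 lower in CD70Tg mice. These counts are near or below the shares of all tested genes. The shares were 27.5% higher and 18.4% lower in controls, and 22.6% and 20.1% in CD70Tg mice. Hif1a, a hypoxia-inducible factor that favours glycolysis, was at 3294 and 2463 in control Tconvs, 3660 and 5318 in CD70Tg Tconvs, 8186 and 7610 in control Tregs, and 8422 and 9602 in CD70Tg Tregs (log2 fold change 1.47 in controls, adjusted p = 2.4e-06, limma). With CD70 it was called higher in Tconvs (log2 fold change 0.63, adjusted p = 0.020, limma), a call lost without the second control or the second CD70Tg Tconv library (adjusted p = 0.23 and 0.27, limma). Nfe2l2, a regulator of antioxidant genes, was at 2598 and 2118 against 641 and 570 in controls (log2 fold change -1.95, adjusted p = 3.7e-08, limma). Myc, which drives growth and ribosome production, was called lower in CD70Tg cells of both subsets, from 2181 and 2030 to 1473 and 1473 in Tconvs (log2 fold change -0.51, adjusted p = 0.0084, limma) and from 3247 and 3008 to 2383 and 2181 in Tregs (log2 fold change -0.45, adjusted p = 0.025, limma). Pprc1, a coactivator of NRF1, was lower in CD70Tg Tregs, at 1098 and 936 against 1607 and 1476 (log2 fold change -0.60, adjusted p = 0.021, limma). In Tregs both calls were lost without any one of the 4 Treg libraries (adjusted p = 0.082 to 0.28 for Myc and 0.052 to 0.21 for Pprc1, limma), and in Tconvs that of Myc without the first control library (adjusted p = 0.065, limma). The counts of these lists were not computed without the 2 Tconv libraries of low mitochondrially encoded sum. They were read as counts beside the shares of all genes given above, and nothing particular to them was tested.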

How the data were processed

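RNA was extracted from sorted Tregs and Tconvs, and libraries were made with a kit for low input and sequenced from both ends. The authors trimmed reads with Trimmomatic 0.36, mapped them to mm10 with STAR 2.5.3 and counted them with HTSeq 0.9.1. The deposited values, treated as a score, are read counts brought to 20 M per library, with fractions raised to the next integer, and therefore no count model served as the test. Libraries were grouped by the column names, with KO taken as control. The 4131 rows with clone-derived names were dropped because the spacing of their low values differs from that of the rest of the library, and of 97 names on more than one row the row with the largest total was kept. Genes that reached 60 in 2 or more libraries entered limma 3.58.1 in R 4.3.3 (linear model with trend, 12.3 prior degrees of freedom) on log2(value + 5). All 8 libraries shared the fit, groups were its 4 terms, and p-values were adjusted over all 12798 genes. Fold changes on this scale understate the change of low genes. Calls are adjusted p-values under 0.05, and the count with an absolute log2 fold change over 1 stands beside them.

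Single genes named are all mitochondrially encoded members, members called with CD70, the 3 largest changes in each direction between subsets in controls, tissue isoform sets, the highest and lowest tested member per kb in each complex, and up to 4 called genes per related list. Others, among them Ndufs1, Ndufaf5, Ndufaf7, Sdha, Uqcrc1, Uqcrc2, Uqcrfs1, Cox5a, Cox5b, Atp5b, Atp5e and Atp5h, were named after their values were seen. The members and lists were chosen with earlier results of these data known. Alternatives were other pseudocounts, filters and scalings, limma-voom on the numbers of reads recovered from the steps, the clone-named rows kept, only the compared libraries, and each library left out. Leaving out the 2 Tconv libraries of lowest mitochondrially encoded sum was added after seeing the data. The procedure was tested on simulated data. Lengths are merged exons of GENCODE M21 (GRCm38), which held 99.6% of the gene identifiers. Promoters are RefSeq sequences of GRCm38.p6. Reads shared with pseudogenes of nuclear members were not examined.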

Additional observations from a re-analysis of the deposited data

Results flagged for a closer look

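For 8 members, both CD70Tg libraries moved one way in Tregs and both the other way in Tconvs, without overlap with their controls. The same held for 702 tested genes, or 5.49% of all tested. The difference between the 2 responses, as Treg minus Tconv log2 fold change, did not pass the test for any of the 8 (limma, adjusted over all tested genes). It was 0.27 for Atp5h (adjusted p = 0.63), 0.293 for Cox6a1 (adjusted p = 0.53), 0.338 for Sdhc (adjusted p = 0.52), 0.323 for Ndufv3 (adjusted p = 0.55), 0.393 for Ndufa2 (adjusted p = 0.42), 0.354 for Cox7c (adjusted p = 0.54) and 0.50 for Ndufc1 (adjusted p = 0.55), all of them higher in CD70Tg Tregs and lower in CD70Tg Tconvs. The opposite held for Atp5s, at -1.171 (adjusted p = 0.49), which rested on few reads.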

How the results depend on the processing

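With 2 libraries a group, leaving out a library left a group with a lone sample, which was assumed to vary like the other groups. Nuclear members called between subsets in controls ranged from 42 to 72 over the 8 libraries left out in turn, and were 3 with an absolute log2 fold change over 1. In CD70Tg mice they ranged from 21 to 51, and were 31 without the 2 Tconv libraries of low mitochondrially encoded sum and 0 with an absolute log2 fold change over 1. Nuclear members called with CD70 in Tconvs ranged from 0 to 3, and were 0 with no filter on low values, 2 with limma-voom, 3 without the 2 Tconv libraries, 0 with only the compared libraries and 0 with an absolute log2 fold change over 1. Mitochondrially encoded members called between subsets ranged from 0 to 7 in each genotype, and were 1 with no filter, 0 with median-of-ratios factors, 0 with trimmed-mean factors and 6 with only the compared libraries, in controls and in CD70Tg mice alike. For mt-Nd2 in CD70Tg mice the log2 fold change ran from -0.215 to 1.66 over the libraries left out and was -0.215 without the 2 Tconv libraries. The other counts stayed within 1.5 times and the log2 ratios of the sums within the spread (205 values in all). For the ratios, nearly all of this was fixed in advance. Leaving out 1 of 2 libraries always moves their mean by less than their SD, and scaling cancels in a ratio. The ratios are therefore not shown to be stable. Of the values for single genes and class medians, 2159 kept direction and side of the threshold, 173 lost and 39 gained a call, and 3 moved by more than the spread. The cause of these changes was not tested. The deepest library had 33.1 M reads on genes and the shallowest 1.9 M, which limits what can be said of members near the floor. No paired analysis was possible because the columns of the table carry no replicate numbers, so that the replicate block was not run.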
